A study of Mus musculus with 8 samples.

Results

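Cytosolic ribosomal proteins are the proteins that, with ribosomal RNA, build the small and large subunits of the ribosome outside mitochondria. Here they were taken as all probe sets annotated to a single mouse symbol that begins with Rpl or Rps and a number, or to Rpsa, Rplp0, Rplp1 or Rplp2, without pseudogene symbols and without the Rps6k kinases. The rule used names only and no measured value. It found 106 of 45037 probe sets, for 50 genes of 17790 genes tested, 26 of them large subunit genes by symbol and 24 small subunit genes. All 106 probe sets passed the filter on low signal. A further 110 probe sets carry a ribosomal protein symbol beside other symbols, often copies of the same message, and were not counted as members.

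Liver RNA of BALB/c mice aged 8 weeks was hybridised to 8 Affymetrix mouse arrays, 2 in each of 4 groups, and each array held the pooled RNA of 3 mice. The post-A20 and pre-A20 mice had received rAd.A20, a recombinant adenovirus that carries human A20, an inhibitor of the transcription factor NF-κB, 5 days before a 78% liver resection. The post-βgal and pre-βgal mice had received the control virus rAd.βgal, so every group carried an adenovirus and none was without one. Post groups are the liver left in place 24 h after resection, and pre groups are the lobes removed at resection. The study's methods give the vector by penile vein, with the transgene in a minority of hepatocytes, so each liver mixes cells with and without it. The treatment text of both post-A20 samples repeats the βgal wording, but title, source name and description say A20, which was followed. The labels name separate replicates without saying whether pools shared mice, and p-values measure only the spread between these arrays. The summed signal of 10 hepatocyte markers lay between 102042 and 120125 in the 8 arrays, and none of the 86 marker genes tested, of all lists, was at 0.

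A cell that prepares to divide must first make more ribosomes, and hepatocytes do so early after loss of liver mass. The genes for ribosomal proteins give some of the most abundant messages of any cell. Most of these messages begin with a C and a run of C and T bases (a 5′ terminal oligopyrimidine or TOP tract), through which the kinase mTORC1 sets how many of them are translated, so that the amount of the message is only part of the control. Some of the proteins also work outside the ribosome, such as Rpl11 and Rps7, which bind the p53 regulator Mdm2, and Rpl22 and Rps27 each have a close copy (Rpl22l1, Rps27l) that can stand in for them.

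The start sites of several genes whose signals are described below are shown first, because the TOP tract lies there. RefSeq windows of build GRCm38.p6 were found for 44 of the 50 genes, with 52 windows in all, and Rpl7, Rpl8, Rps14, Rps20, Rps29 and Rps4l had none in the table. Each line gives the 15 bases before the annotated start and the first 15 bases of the transcript, 5′ to 3′ on the strand of the gene, with the longest run of C and T in capitals.
Rpl12 (chr2:32961697-32961726, plus strand): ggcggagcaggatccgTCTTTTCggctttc
Rps6 (chr4:86857353-86857382, minus strand): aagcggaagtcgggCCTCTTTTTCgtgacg
Rps27 (chr3:90213634-90213663, minus strand): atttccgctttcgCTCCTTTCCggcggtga
Rpl4 (chr9:64173372-64173401, plus strand): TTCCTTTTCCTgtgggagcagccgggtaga
Rpl14 (chr9:120571502-120571531, plus strand): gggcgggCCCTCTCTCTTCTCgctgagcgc
Rpl7a (chr2:26910792-26910821, plus strand): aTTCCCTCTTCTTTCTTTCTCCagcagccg
Rpl22l1 (chr3:28805493-28805522, plus strand): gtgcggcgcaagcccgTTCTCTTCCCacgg
Rpl41 (chr10:128549154-128549183, minus strand): cacacgggccggCTCggaagtgacgacacc
The run spans the annotated start in Rps6, Rps27, Rpl14 and Rpl7a, begins at the second base of the transcript in Rpl12 and Rpl22l1, and ends before the start in Rpl4, and Rpl41 has no run of more than 3 bases in the window. A run of at least 8 bases was in 19 of the 52 member windows (36.5%), against 3943 of all 32851 windows of the table (12%). In the longer windows of 250 bases before to 50 after the start, searched on both strands, CGGAAG, the core bound by ETS factors, was in 61.5% of member windows and 16.9% of all windows. The GC box GGGCGG was in 53.8% against 35.7%, the E-box CACGTG in 9.62% against 7.15%, and TATAAA in 11.5% against 13.6%. These are matches of letters, not sites shown to be bound.

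The level that each array gave to the members differed as much between replicates as between groups. Relative to each gene's mean over the 8 arrays, the median member stood at −0.10 and −0.02 (log2 of signal + 16) in post-A20 replicates 1 and 2, at −0.21 and 0.08 in pre-A20, at 0.26 and 0.06 in post-βgal, and at 0.10 and −0.20 in pre-βgal. Post-βgal replicate 1 was the highest array for 33 of the 50 members, pre-A20 replicate 1 the lowest for 21 and pre-βgal replicate 2 the lowest for 16. Replicate 1 lay above replicate 2 for 41 members in pre-βgal (median difference 0.30) and for 46 in post-βgal (0.20), but for 3 in pre-A20 (−0.28) and 15 in post-A20 (−0.05). Over all genes these median differences lay between −0.02 and 0.02. Over genes whose signal averaged 1000 or more, the level reached by 37 members, they were 0.06 in pre-βgal, 0.10 in post-βgal, −0.06 in pre-A20 and 0.02 in post-A20, smaller than those of the members and of the same sign except in post-A20. The median spread between replicates was 0.17 (SD, log2) for the members, 0.14 for all genes, and 0.21 for all genes at that level.

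**Figure D1:**
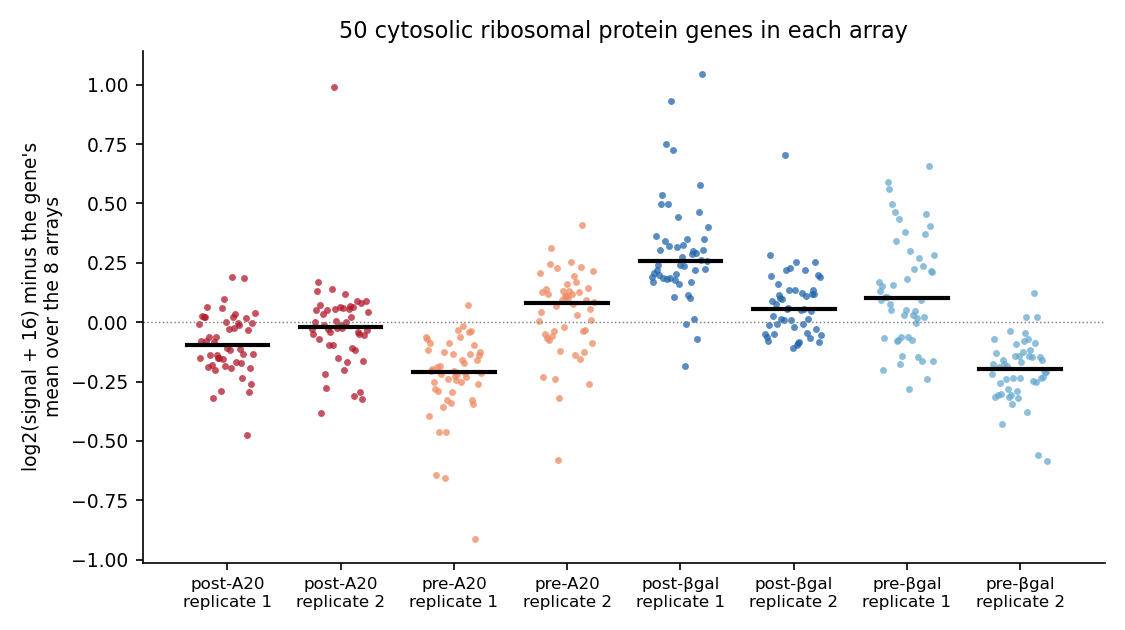
Deviation of each of the 50 member genes (points) from its own mean over the 8 arrays, on the log2(signal + 16) scale (y axis), in each array (x axis), with the median as a bar. Medians run between −0.21 in pre-A20 replicate 1 and 0.26 in post-βgal replicate 1, and arrays of 1 group lie up to 0.30 apart.

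RNA quality also differed between these arrays. The β-actin control is read near both ends of its message, and its 3′ over 5′ ratio, which grows when RNA is degraded or copied short, was 3.64 in post-βgal replicate 1 and 6.997 in pre-βgal replicate 1, against 1.27 to 1.62 in the other 6 arrays. These are the βgal arrays in which members stood higher than in their replicate. Rpsa, the laminin receptor and a small subunit protein, had the widest replicate gap in pre-βgal, with 9711 and 7056 in post-βgal and 9894 and 4965 in pre-βgal. The stalk protein Rplp2 (11356 and 8125 in post-βgal, 11090 and 6614 in pre-βgal), Rpl8 (10200 and 8029, 9559 and 5020) and Rps19, the gene most often mutated in Diamond-Blackfan anaemia (7636 and 5656, 7327 and 4507), had the same order. In all 4 genes the replicate 1 arrays of post-βgal and pre-βgal were close and both above the replicate 2 arrays. The part of RNA quality in the levels of these genes was not tested, and values with the ratio as a covariate and without these arrays are given beside the results below.

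In the liver 24 h after resection, most ribosomal protein messages gave a lower signal with A20 than with βgal, by a small amount. Of them 1, Rpl12, was called, through a dim probe set. The median log2 fold change of post-A20 against post-βgal over the 50 members was −0.22 (quartiles −0.32 and −0.11), with 45 values below 0, while the median over all genes tested was 0.03. Both post-A20 arrays lay below both post-βgal arrays for 34 members (68%), where 26.4% of all genes were separated in that direction, and above them for 2. The 26 large subunit genes (median −0.23, 24 below 0) and the 24 small subunit genes (−0.20, 21 below 0) had like values. The limma fit called 1 of 50 lower and none higher at an adjusted p under 0.05, where 1.42% of all genes were called in either direction, and 6 lower and 1 higher at an unadjusted p under 0.05. Of all genes, 10.4% were lower and 11.2% higher at that threshold, so that the 6 lower members are near the background and the 1 higher is below it. The median stayed below 0 without each array in turn, between −0.30 and −0.13. It was −0.13 without post-βgal replicate 1, with 38 of 50 members below 0. With the β-actin ratio as a covariate it was −0.11.

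Rpl12, which sits at the base of the ribosomal stalk where elongation factors bind, had signals of 134.8 and 168.4 in post-A20 and 303.2 and 257 in post-βgal. Both post-A20 arrays lay well below both post-βgal arrays, and the log2 fold change was −0.82 ± 0.13 (SE; limma adjusted p = 0.0353). The call was lost when any of the 6 arrays outside pre-βgal was left out, with log2 fold changes between −0.97 and −0.68 and adjusted p-values up to 0.196, and the direction held in each. Rps6, the small subunit protein phosphorylated by S6 kinase, had 107.6 and 124.2 in post-A20 and 240.1 and 172.6 in post-βgal (−0.74, limma adjusted p = 0.134). Its other probe set gave 96.9 and 104 against 86.5 and 98.6, which overlap and lean the other way.

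Other members with a low unadjusted p in this comparison were Rpl14, a large subunit protein (99.6 and 102.9 in post-A20, 226.5 and 140.1 in post-βgal), and Rps25, which lies at the head of the small subunit (203 and 211.3, 385.4 and 267.4). Their log2 fold changes were −0.73 and −0.60, with limma adjusted p-values of 0.173 and 0.211, so neither was called. Rps9 had 4671 and 5387 in post-A20 against 7142 and 6424 in post-βgal (−0.43, limma adjusted p = 0.222). Rps16 went the other way, with 42.3 and 39.5 in post-A20 against 29 and 32.2 in post-βgal (0.29, limma adjusted p = 0.143), through the dimmest probe set of all members. Apart from Rps9, each of these readings came from a dim probe set. Rps16 averaged 40.9 in post-A20, 36.8 in pre-A20, 30.6 in post-βgal and 33.1 in pre-βgal. It thus passed the low-signal filter of 40 only through post-A20, the group where it was highest, and its higher value there cannot be read apart from that filter.

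Before resection the members did not lean one way. The median log2 fold change of pre-A20 against pre-βgal was −0.02, with 22 above and 28 below 0, beside −0.03 over all genes. Both pre-A20 arrays lay below both pre-βgal arrays for 4 members (8%), where 29.3% of all genes were separated in that direction. No member was called by limma, where 4.63% of all genes were, and 1 was higher and 2 lower at an unadjusted p under 0.05, where 8.99% of all genes were higher and 14.4% lower. Without pre-βgal replicate 2 the median was −0.20, and without pre-βgal replicate 1 it was 0.10, so that the sign hung on which control array was kept. The test of whether the effect of A20 differed before and after resection, given further below, called no member.

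Rps4l, named as a relative of the X-linked small subunit gene Rps4x, was the member with the lowest log2 fold change with A20 at both times. Its signals were 617.7 and 604.8 in post-A20, 396.3 and 632.1 in pre-A20, 1587 and 909.5 in post-βgal and 1211 and 679.9 in pre-βgal. All 4 A20 arrays lay below all 4 βgal arrays, and the βgal replicates lay far apart, the replicate 1 arrays being the higher. The log2 fold changes were −0.96 after and −0.84 before resection, and −0.90 ± 0.25 (SE) as the mean of both times, with a limma adjusted p of 0.0583, short of the threshold. Rps4x itself had log2 fold changes of −0.16 and −0.10 after and before resection. Over the mean of both times, limma called Rpl12 lower with A20 (−0.63, adjusted p = 0.0117) and no other member, where 8.59% of all genes were called, and the median of the members was −0.09. With 1 array left out in turn, that median ranged between −0.18 and −0.03.

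**Figure D2:**
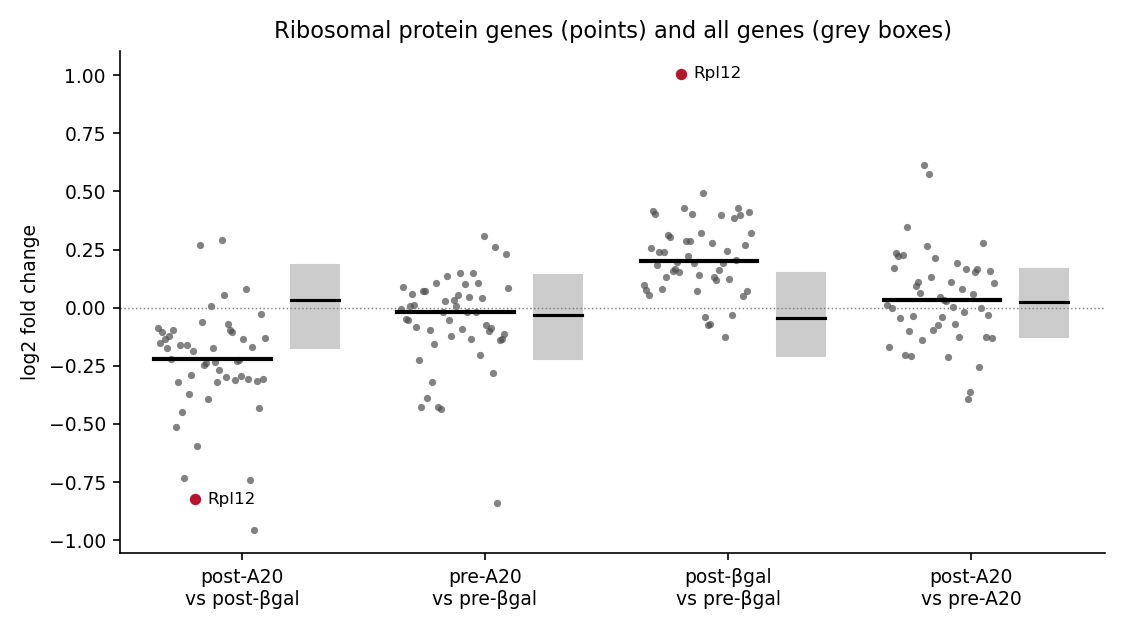
Log2 fold changes of the 50 member genes (points, with a bar at their median) in 4 comparisons (x axis), beside the quartiles (grey box) and median (line) of all 17790 genes tested. Red points are called by limma. Medians of the members are −0.22, −0.02, 0.20 and 0.03 in the order shown.

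In βgal livers, most members gave a higher signal after resection than before, by a small amount. The median change was −0.01 in the fit that left out 1 control array, pre-βgal replicate 2. The median log2 fold change of post-βgal against pre-βgal was 0.20 (quartiles 0.12 and 0.32), with 45 members above 0, beside −0.05 over all genes. Both post-βgal arrays lay above both pre-βgal arrays for 17 members (34%), where 20.4% of all genes were separated in that direction. The limma fit called 1 member higher, Rpl12, where 3.99% of all genes were called, and 9 members higher and none lower at an unadjusted p under 0.05, where 10.5% of all genes were higher and 13.5% lower. Without pre-βgal replicate 2, the array with the lowest levels in this group, the median was −0.01 with 24 of 50 members above 0, and without pre-βgal replicate 1 it was 0.38 with 46 above 0. The first of these fits keeps pre-βgal replicate 1, with a β-actin ratio of 6.997, as the only array of its group. Same-numbered βgal arrays deviated together over the members (r = 0.83), and this fit leaves post-βgal replicate 2 without its same-numbered array. Relative to each gene's mean, the median member stood at 0.26 after and 0.10 before resection in βgal replicate 1. In βgal replicate 2 it stood at 0.06 after and −0.20 before. Whether the numbers mark shared mice was not tested. Without both βgal replicate 1 arrays the median was 0.29, again with 45 above 0. With the β-actin ratio as a covariate it was 0.29 and 8 members were called higher, and the share of all genes called in that fit was not computed.

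Rpl12, through the same dim probe set, gave 303.2 and 257 in post-βgal and 143.3 and 119.5 in pre-βgal. It thus had a log2 fold change of 1.01 ± 0.13 (SE; limma adjusted p = 0.00964), the largest of all members. In A20 livers it had 134.8 and 168.4 in post-A20 and 90.3 and 96 in pre-A20 (0.61 ± 0.13, limma adjusted p = 0.0601). Its groups did not overlap in either transgene. The call in βgal livers was lost without post-βgal replicate 1 (0.89, adjusted p = 0.069). In the mean of both transgenes it was 0.81 (limma adjusted p = 0.00283), the only member called there, where 6.14% of all genes were called, and the median of the members was 0.12.

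The other members with a low unadjusted p in βgal livers were all higher after resection. Rpl4, which lines the exit tunnel of the large subunit, had 9769 and 10220 in post-βgal and 7298 and 7670 in pre-βgal (0.42 ± 0.12 SE, limma adjusted p = 0.0887). Its replicates lay close together in both groups, as did those of other abundant members such as Rpl27 and Rps7. In A20 livers Rpl4 had 8534 and 9191 in post-A20 and 7896 and 7150 in pre-A20. Rplp0, the scaffold of the stalk, had 7816 and 7558 in post-βgal and 6315 and 5344 in pre-βgal (0.40, limma adjusted p = 0.136). It had 6707 and 7442 in post-A20 and 5725 and 6388 in pre-A20, so that its arrays after resection lay above those before in both transgenes.

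Rps27, a zinc finger protein of the small subunit, had 185.1 and 166.6 in post-βgal and 126.3 and 126.8 in pre-βgal (0.43, limma adjusted p = 0.066), with overlap in A20 livers (148 and 161.7 in post-A20, 141.1 and 169.5 in pre-A20). Rpl22l1, the close copy of Rpl22, had 3857 and 3671 in post-βgal and 2524 and 2818 in pre-βgal (0.49, limma adjusted p = 0.144). Rpl22 had 6752 and 5748 in post-βgal and 6571 and 5304 in pre-βgal, which overlap. Rps7, one of the Mdm2 binders, had 8762 and 8355 in post-βgal and 6534 and 6339 in pre-βgal (0.41, limma adjusted p = 0.136), and 6670 and 7161 in post-A20 and 6710 and 8518 in pre-A20. Rpl27, Rpl7a and Rpl41 had log2 fold changes of 0.40, 0.32 and 0.40, with limma adjusted p-values of 0.145, 0.204 and 0.156, and their βgal arrays did not overlap either. Rpl11, the other Mdm2 binder, had 6070 and 5603 in post-βgal and 5463 and 4971 in pre-βgal, apart but close (0.16, limma adjusted p = 0.513).

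In A20 livers the members showed no common change after resection. The median log2 fold change of post-A20 against pre-A20 was 0.03, with 28 above and 22 below 0, beside 0.02 over all genes. Both post-A20 arrays lay above both pre-A20 arrays for 10 members (20%), where 29.4% of all genes were separated in that direction. No member was called, where 2.01% of all genes were, and 1 was higher and 1 lower at an unadjusted p under 0.05, where 9.56% of all genes were higher and 7.08% lower. The sign depended on pre-A20 replicate 1, without which the median was −0.09, while without pre-A20 replicate 2 it was 0.15.

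The member that was lower was Rps27l, the copy of Rps27 that human cells induce through p53, with 5403 and 4916 in post-A20 and 6403 and 7162 in pre-A20 (−0.39 ± 0.13 SE, limma adjusted p = 0.176). It was also lower in βgal livers, with 6144 and 5897 in post-βgal and 6501 and 6640 in pre-βgal (−0.13, limma adjusted p = 0.589). All 4 arrays after resection lay below all 4 before, the reverse of most members, and as the mean of both transgenes the log2 fold change was −0.26 (limma adjusted p = 0.147). Rps3a1, a small subunit protein, had 1 value far from the rest, with 6375 and 15481 in post-A20, against 6205 to 8387 in the other 6 arrays, and the second value made its post-A20 mean.

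**Figure D3:**
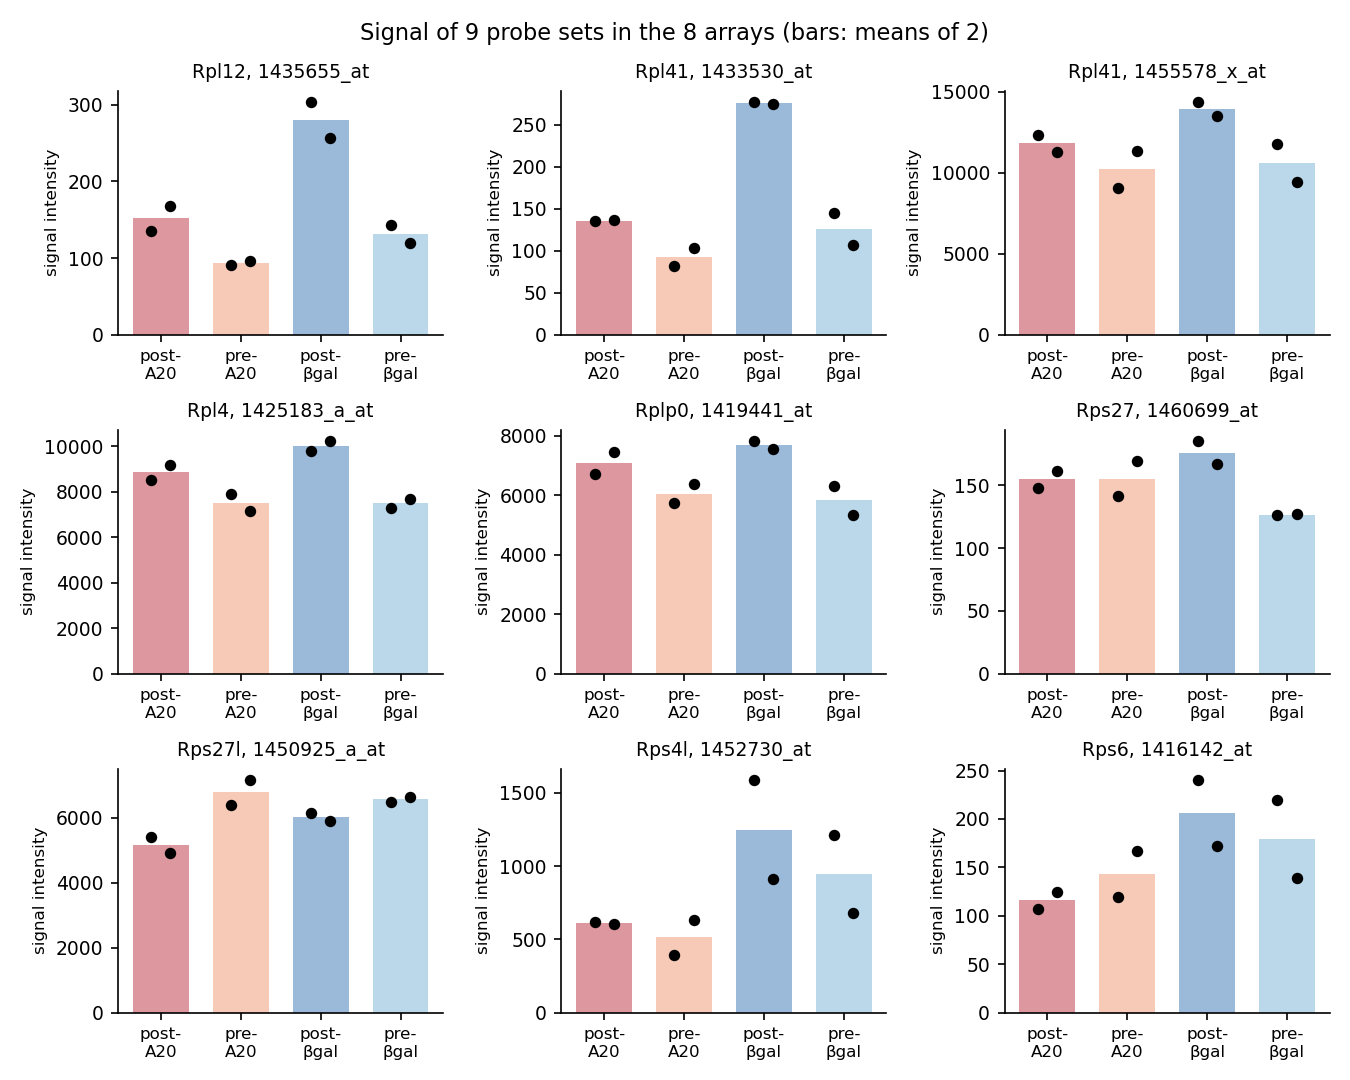
Signal intensity on a linear scale (y axis) of 9 probe sets of 8 member genes in the 4 groups (x axis), with points for the 2 arrays of a group and bars for their mean. Rpl12 and the dimmer Rpl41 probe set are high in both post-βgal arrays, Rps27l is lowest in post-A20, and the βgal replicates of Rps4l and Rps6 lie far apart.

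Whether the response to resection differed between A20 and βgal livers was tested as an interaction, the log2 fold change after resection with A20 minus that with βgal. No member was called, where 0.0281% of all genes (5 genes, all lower) were, and at an unadjusted p under 0.05 there were 3 members below 0 and none above, where 6.32% of all genes were below and 11% above, so that the 3 are at the background. These were Rps7 (−0.54), Rps27 (−0.43) and Rpl27a (−0.60), with limma adjusted p-values of 0.244, 0.225 and 0.258. The median of the members was −0.18, with 43 below 0, beside 0.05 over all genes. It was 0.03 without pre-βgal replicate 2 and −0.36 without pre-βgal replicate 1. The comparisons of post-A20 with post-βgal and of post-βgal with pre-βgal share the post-βgal arrays, where replicate 1 is the highest for 33 members, so that lower values in the first and higher values in the second are not separate observations.

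Members with several probe sets show how far a gene's value depended on which was read. Of the 24 genes with more than 1 kept probe set, all probe sets of a gene had the same sign in 14 genes for post-A20 against post-βgal, in 13 for pre-A20 against pre-βgal, in 17 for post-βgal against pre-βgal and in 16 for post-A20 against pre-A20. The 35 probe sets of the kind _at, whose probes were designed for a single transcript, had a median signal of 193.4. The 28 of the kind _a_at, shared by transcripts of 1 gene, had 6715, and the 40 of the kind _x_at, which may bind similar sequences of other genes, had 5550. The 3 genes with the widest range between probe sets were Rps20, Rps6 and Rps3, all in post-A20 against post-βgal. For Rps3, a DNA-binding small subunit protein known in human cells as a partner of NF-κB, the brightest probe set had 6662 and 7262 in post-A20 and 8328 and 7279 in post-βgal (−0.16). A dimmer one had 643.6 and 475.8 in post-A20 against 408.7 and 382.9 in post-βgal (0.47, limma adjusted p over all probe sets = 0.245). The dimmest had 178.5 and 182.2 in post-A20 against 243.7 and 202.9 in post-βgal (−0.28), the direction of the brightest. For Rps20, a small subunit protein, the brightest had 4791 and 5428 in post-A20 and 6388 and 5598 in post-βgal, and a dim one 167.5 and 159.6 in post-A20 and 122.6 and 107.4 in post-βgal, so that both separated the groups in opposite directions. The dimmest had 70.8 and 63.4 in post-A20 and 108.3 and 80.4 in post-βgal (−0.40), the direction of the brightest. The remaining one was bright and overlapped.

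Tested probe set by probe set, 3 of 106 were called higher in post-βgal than in pre-βgal, where 1.11% of all probe sets were called, and none of 106 between post-A20 and post-βgal, where 0.283% were. At an unadjusted p under 0.05, 8 were lower and 4 higher in post-A20, where 7.95% of all probe sets were lower and 10.5% higher. The 3 were that of Rpl12 and 2 of the 4 probe sets of Rpl41, the shortest ribosomal protein. The dimmest of them had 276.9 and 274.4 in post-βgal and 145.3 and 107.2 in pre-βgal (1.05, limma adjusted p = 0.0253), with 135.2 and 136.6 in post-A20 and 82.2 and 103.7 in pre-A20. The next had 295.2 and 283.8 in post-βgal and 160.3 and 113.2 in pre-βgal (1.02, limma adjusted p = 0.0424). The brightest had 14362 and 13493 in post-βgal and 11760 and 9426 in pre-βgal (0.40), with 12318 and 11311 in post-A20 and 9091 and 11362 in pre-A20. The dim and bright probe sets of Rpl41 thus ordered the groups alike, with post-βgal highest, and differed in size. Rps24, by contrast, had a dim probe set with 142.5 and 122.3 in post-A20, 203 and 222.9 in pre-A20, 105 and 89.9 in post-βgal and 159.7 and 138.4 in pre-βgal, lower after resection in both transgenes and higher with A20 at both times. As means, these were −0.58 for resection and 0.43 for A20 (limma adjusted p over all probe sets = 0.0159 and 0.0398), while its brightest probe set had 0.06 and 0.02. Which transcript the dim probe sets read was not tested.

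**Figure D4:**
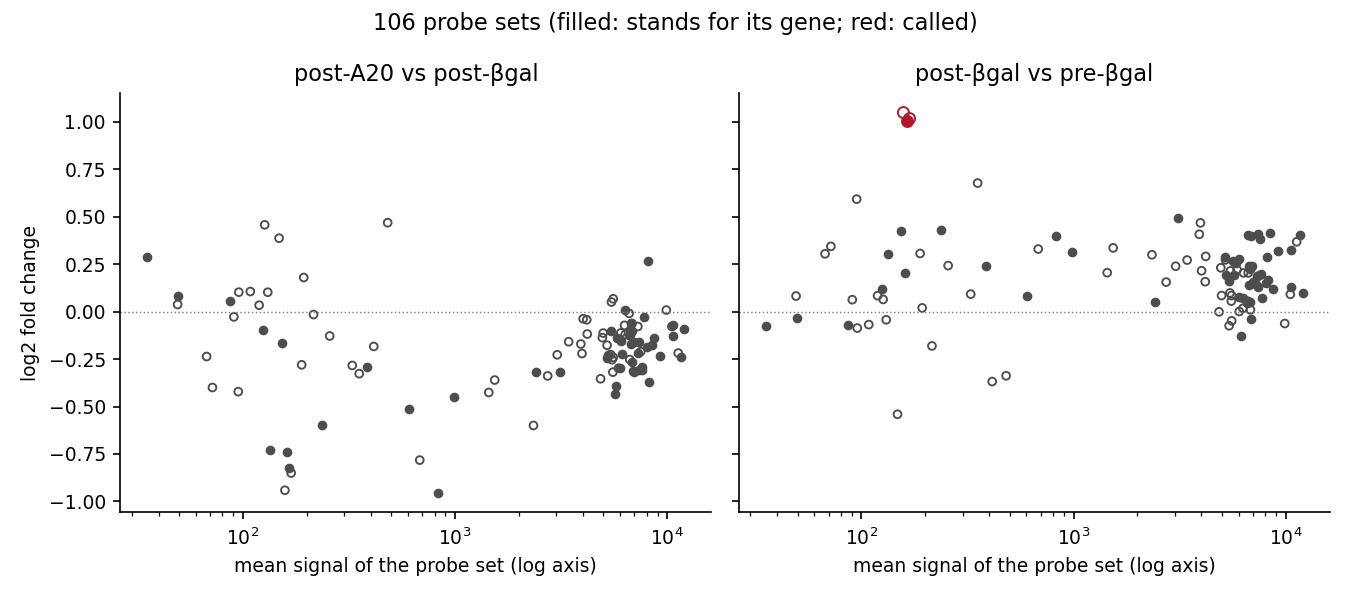
Log2 fold change (y axis) of each of the 106 member probe sets against its mean signal over the 8 arrays (x axis, log axis) for 2 comparisons. Filled points stand for their gene and red points are called. Probe sets that average 1000 or more lie between −0.60 and 0.49, and those called in the comparison of post-βgal with pre-βgal are dim, with means of 157.7 to 168.7.

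Several members named for their level or role were called by limma in no comparison, Rps29, Rps2, Rpl38, Rpl13a, Rps28, Rpl3l, Rpl39l and Rpl39 among them. Rps29 and Rps2 were among the 3 brightest members, with Rpl41, and Rps29 had 11960 and 11766 in post-A20, 11492 and 12039 in pre-A20, 13714 and 11616 in post-βgal and 13492 and 10316 in pre-βgal. Rps2 had 10870 and 11017 in post-A20, 9501 and 9630 in pre-A20, 11470 and 11538 in post-βgal and 10958 and 10084 in pre-βgal, with both arrays after resection above both before in each transgene. Rpl38, needed in mouse embryos for the translation of Hox messages, had log2 fold changes of −0.14, −0.08, 0.12 and 0.06 for post-A20 against post-βgal, pre-A20 against pre-βgal, post-βgal against pre-βgal and post-A20 against pre-A20. For Rpl13a, which in human cells can leave the ribosome to silence inflammatory messages, the same values were −0.29, −0.16, 0.20 and 0.06, and for Rps28 they were −0.03, −0.11, 0.07 and 0.16. The tissue-restricted copies Rpl3l, of muscle, and Rpl39l, of testis, were dim, with 81 to 92.2 and 44.1 to 58.4 over all arrays, and Rpl39 had 108.8 to 141.9.

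Rpl7l1 and Rps19bp1 carry a matching symbol without being counted among the core proteins of the ribosome. Rpl7l1 had 857.2 and 833 in post-A20 and 1236 and 1088 in post-βgal. Rps19bp1, which binds Rps19, had 510.8 and 445 in post-A20 and 832.3 and 565.5 in post-βgal. Without both genes the median for post-A20 against post-βgal was −0.20. Of the 32 genes fixed by role, 9 had no probe set with a single symbol, and Rpl5, Rpl23, Rpl26, Rplp1, Rps27a, Rpl3, Rpl10, Rpl10l and Rpl36al are not described for that reason. The 108 kept probe sets with several symbols, which are not named, had medians of −0.21 for post-A20 against post-βgal and 0.16 for post-βgal against pre-βgal, close to the members, with no call in the first and 1 in the second.

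Most other lists of the translation machinery had medians of the same sign as the members in the comparisons of post-A20 with post-βgal and of post-βgal with pre-βgal. The 18 genes of mTORC1 and S6 kinase control did not, with a median of 0.02 for post-A20 against post-βgal, 10 of them above 0, none called, and 1 higher and 1 lower at an unadjusted p under 0.05. Of all genes, 1.42% were called in that comparison, and 10.4% were lower and 11.2% higher at the unadjusted threshold. For post-A20 against post-βgal, the 36 initiation factors tested of 42 listed had a median log2 fold change of −0.36, with 33 below 0 and none called, though 10 were lower and none higher at an unadjusted p under 0.05. The 14 tested of 17 other TOP messages had −0.38, with all 14 below 0 and 1 called, Nap1l1, a histone chaperone (−1.10, limma adjusted p = 0.0385), and 8 of these genes are also in the factor or small nucleolar RNA host lists. The 9 elongation factors had −0.10, the 13 host genes of small nucleolar RNAs −0.32 and the 20 chaperones and exporters of ribosomal proteins −0.22. None of these 3 lists had a call, and at an unadjusted p under 0.05 they had 3, 5 and 5 genes lower and none higher. Of 14 genes of ribosome rescue (−0.20), Pelo, which releases stalled ribosomes, was called lower (−0.64, limma adjusted p = 0.0468). As the mean of both times, Eif6, Eif5b, Nap1l1, Nemf, Pelo and Rps6ka3 were called lower with A20 and no gene of these lists higher, where 8.59% of all genes were called. The arrays of Eif6, Nap1l1 and Rps6ka3 overlapped there.

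For post-βgal against pre-βgal the initiation factors had a median of 0.33 with none called and 12 higher, none lower, at an unadjusted p under 0.05. The other TOP messages had 0.30 with 2 called, Nap1l1 (1.15, limma adjusted p = 0.0194) and Npm1, a nucleolar chaperone of ribosome assembly (1.09, limma adjusted p = 0.0317). Of all genes, 3.99% were called there, and 10.5% were higher and 13.5% lower at an unadjusted p under 0.05. Of the small nucleolar RNA hosts (0.20), Snhg3 (1.24, limma adjusted p = 0.00994) and Snhg5 (1.16, limma adjusted p = 0.0298) were called higher. Snhg3 was also called higher in post-A20 than in pre-A20 (0.86, limma adjusted p = 0.0421), where 2.01% of all genes were called. In the mean of both transgenes both were called higher (1.05 and 1.04, limma adjusted p = 0.00234 and 0.00756), where 6.14% of all genes were called. Of the 9 genes listed as elongation factors (0.13 in βgal livers), only Eef1e1 was called, higher (1.18, limma adjusted p = 0.041). The factors Eef1a1 and Eef2 had 0.10 and 0.08 and were not called. Of the mTORC1 and S6 kinase genes (0.10), Deptor, an inhibitor of mTOR, was called lower (−1.10, limma adjusted p = 0.0274). Of 14 rescue genes (0.14), Ascc3 was called higher (0.60, limma adjusted p = 0.046). Ribosomal protein messages thus had smaller median values than the initiation factors and other TOP messages in both comparisons, a difference that was not tested.

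The 76 mitochondrial ribosomal proteins stood furthest from the cytosolic members for post-A20 against pre-A20. Their median was −0.35 for post-A20 against post-βgal, with 67 below 0 and 1 called lower, where 1.42% of all genes were called. For post-A20 against pre-A20 it was −0.30, where cytosolic members had 0.03, with 69 below 0 and none called. In that comparison 14 were lower at an unadjusted p under 0.05, as were 7.08% of all genes. For pre-A20 against pre-βgal and post-βgal against pre-βgal the median was 0.13 and 0.18, with none called. At an unadjusted p under 0.05, 5 and 10 were higher and 1 was lower in each. Of all genes, 8.99% and 10.5% were higher there and 14.4% and 13.5% lower, so that the higher counts are near the background. The 39 proteasome subunits, another set of abundant housekeeping messages, had −0.25 and 0.16 for post-A20 against post-βgal and post-βgal against pre-βgal, near the cytosolic members. The 81 nuclear respiratory chain subunits had −0.08 and −0.06. For post-A20 against pre-A20 they had −0.20, with 71 below 0 and 14 lower at an unadjusted p under 0.05. For pre-A20 against pre-βgal they had 0.07, with 55 above 0. Their signs thus matched those of the mitochondrial ribosomal proteins except for post-βgal against pre-βgal. Neither the proteasome subunits nor the respiratory chain subunits had a call in these comparisons. In none of the 11 regulators of ribosomal protein and ribosome genes, among them Myc, was a change called in the 4 comparisons of 2 groups, and Myc itself had 0.25 for post-A20 against post-βgal and 0.33 for post-βgal against pre-βgal. As the mean of both times, Mdm2 was called lower with A20 (−0.60, limma adjusted p = 0.0251), with all A20 arrays below all βgal arrays, where 8.59% of all genes were called.

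**Figure D5:**
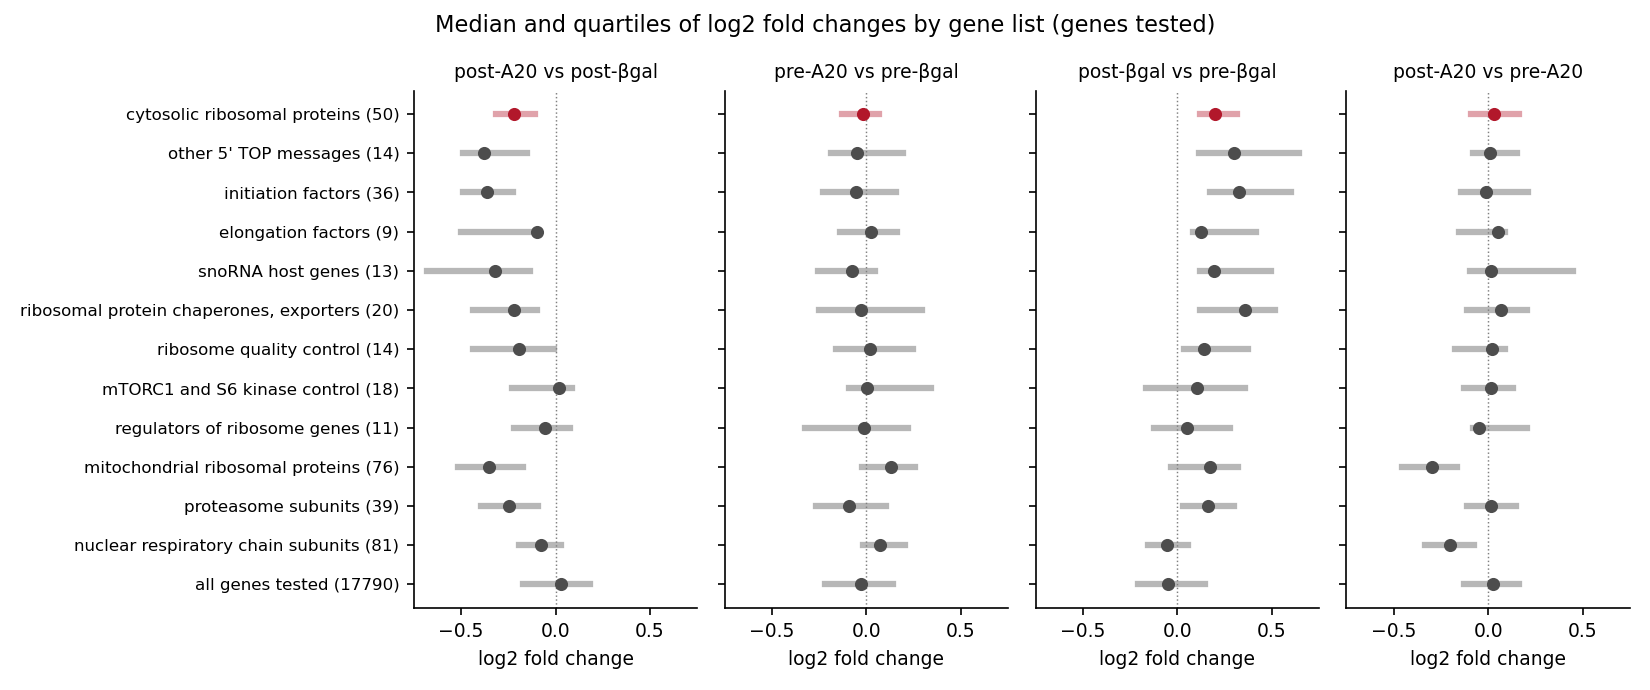
Median (points) and quartiles (bars) of the log2 fold change (x axis) for the cytosolic ribosomal proteins (red), other gene lists and all genes tested, with the number of genes tested in parentheses, in 4 comparisons. Cytosolic ribosomal proteins stand at −0.22 for post-A20 against post-βgal and 0.20 for post-βgal against pre-βgal, and mitochondrial ribosomal proteins at −0.30 for post-A20 against pre-A20, where cytosolic ones stand at 0.03.

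Other cell types also differed between the groups, and in whole liver fewer cells of a type and less RNA per cell cannot be told apart. The summed signal of 10 neutrophil markers was 3569 and 3291 in post-A20, 2932 and 2835 in pre-A20, 6059 and 6906 in post-βgal and 4914 and 4163 in pre-βgal. Of the 10, 3 were called lower in post-A20 than in post-βgal, where 1.42% of all genes were called in either direction. The sum is carried by the brighter markers, and the median log2 fold change of the 10 was −0.08 in that comparison, with 6 below and 4 above 0. At an unadjusted p under 0.05 in the limma fit, 4 of them were lower and 1 was higher, where 10.4% of all genes were lower and 11.2% higher. The sum of 12 Kupffer cell and macrophage markers was 11223 and 9812, 7171 and 6945, 9197 and 11798, and 12314 and 12184 in the same order of groups. The neutrophil sum, like the signal of Rpl12, was highest in post-βgal and lowest in pre-A20, while post-A20 and pre-βgal stood in the opposite order in the 2 measures, and the part of these cells in the member signals was not tested.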

How the data were processed

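Signals of 8 Affymetrix arrays of mouse liver RNA were used, 2 per group, with 3 mice pooled per array. The authors deposited 1 table of normalized signal intensity per probe set on a linear scale. The study's methods name dChip with invariant set normalization and perfect-match probes only, and the sample records name MAS5. The sources used here do not say which of them made the table. Array medians of 152.6 to 165.8 gave no cause for further scaling, and the number of arrays limits the precision.

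Symbols came from the platform annotation. Of the probe sets without controls, 34945 carried 1 symbol, 932 several and 9160 none. The value 16 was added before the log2, a probe set was kept if any group averaged 40 or more (42703 did), and the brightest probe set on average stood for its gene. Fold changes are on the log2(signal + 16) scale, which understates changes of dim probe sets. The model, fitted with limma 3.58.1 under R 4.3.3, had 1 mean per group with moderated variances and a trend (4 residual and 4.52 prior degrees of freedom), 2-sided, with Benjamini-Hochberg adjustment over all 17790 genes in each of 7 comparisons, and a gene with an adjusted p under 0.05 is called. The fit was also made on all kept probe sets. The test was checked on simulated data.

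Members and lists were chosen with earlier results of these data known. Genes were named by a rule: called members whose arrays do not overlap, 32 genes fixed by role, the 3 brightest and 3 dimmest members, the 3 with the widest range between probe sets, and up to 4 genes of a list. Rpl4, Rpl7a, Rpl8, Rpl14, Rpl27, Rpl27a, Rps3a1, Rps7, Rps9, Rps24 and Rps25 were named after their values were seen, as were the genes whose start sites are shown and the motifs. Alternatives were other scalings, filters, offsets, variance models, probe set choices, blocks by replicate number, a covariate for the β-actin ratio, and leaving out arrays. Another was a fold change with a 90% interval, taken from the limma fit, wholly beyond 1.5. The study's own criterion was a 90% lower confidence bound from dChip, which was not computed here. Raw probe files were not used here.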

Additional observations from a re-analysis of the deposited data

How the results depend on the processing

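The median log2 fold changes of the members kept their sign in post-A20 against post-βgal and in the means over both times and over both transgenes under every alternative run. In βgal livers and in the interaction the sign turned only without pre-βgal replicate 2. The median of pre-A20 against pre-βgal was 0.01 with arrays centred on their medians, 0.10 with the β-actin covariate and 0.10 without both βgal replicate 1 arrays, and that of post-A20 against pre-A20 was −0.0048 with centred arrays. With 1 array left out, the median ranged between −0.30 and −0.13 for post-A20 against post-βgal, −0.20 and 0.10 for pre-A20 against pre-βgal, −0.011 and 0.38 for post-βgal against pre-βgal, −0.36 and 0.027 for the interaction, and −0.09 and 0.15 in A20 livers across resection. The number of members called ranged between 0 and 2, 0 and 4, 0 and 2, 0 and 0, and 0 and 1 in the same order, and between 0 and 9 for A20 against βgal and 1 and 3 for post against pre as means.

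For post-A20 against post-βgal (1 member called), 0 were called with no variance trend, with all probe sets tested, without both βgal replicate 1 arrays, by the 90% interval criterion, and 2 with only the 4 arrays compared. For post-βgal against pre-βgal (1 called), 3 were called with all probe sets, 8 with the β-actin ratio as covariate, and 0 with only the 4 arrays or without both βgal replicate 1 arrays. For post-A20 against pre-A20 (0 called), 1 was called with the covariate, with only the 4 arrays and without both βgal replicate 1 arrays. For A20 against βgal as a mean (1 called), 4 were called with all probe sets and 0 without both βgal replicate 1 arrays or by the interval criterion. For post against pre as a mean (1 called), 2 were called with a minimum signal of 100, with no trend and without both βgal replicate 1 arrays, 4 with all probe sets and 8 with the covariate. Other alternatives were chosen after seeing the data. With variances moderated over all probe sets, and among probe sets with several symbols, 0 were called for post-A20 against post-βgal, and among probe sets with several symbols 0 for A20 against βgal as a mean. Among members with a mean signal of at least 1000, 0 were called in the 4 comparisons that called Rpl12. The cause of these shifts was not tested, except that Rpl12, with a dim probe set, is not among members above 1000. The share of all genes called was not computed for the alternatives, so their counts stand without a background.

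Same-numbered arrays deviated together in post-βgal and pre-βgal (r = 0.62 over all genes, 0.83 over the members). They did not in post-A20 and pre-A20 (r = −0.02 and −0.13), so the numbers were not taken to pair arrays. With the replicate number as a block over all arrays, 1 member was called in post-A20 against post-βgal and 1 in post-βgal against pre-βgal, as without it. With a block within each transgene, 3 were called in post-βgal against pre-βgal, 1 in post-A20 against pre-A20 and 3 for post against pre as a mean. With 8 arrays, 2 a group, and replicate spread of 0.17 (log2) among members, log2 fold changes of the size most members had, about 0.2, were not called in any member: Rpl12 was called at −0.82, and Rpl4 at 0.42 was not.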
